A study of Mus musculus with 4 samples.

Results

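The myogenic regulatory factors are the 4 muscle-specific genes Myod1, Myf5, Myf6 and Myog. They were taken by symbol, and each was found as 1 entry in every RNA-seq table, among 24850 entries with a gene symbol in the total RNA tables and 24992 in the polyA RNA tables. Each encodes a basic helix-loop-helix transcription factor that pairs with an E protein and binds the E-box, a short DNA motif written CANNTG, in muscle genes. MyoD (Myod1) and Myf5 commit cells to the muscle lineage and are made in proliferating myoblasts. Myogenin (Myog) is switched on when myoblasts leave the cell cycle and is required for fusion into myotubes, and Myf6, also called MRF4, is mostly a factor of maturing and adult muscle fibres.

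All 4 libraries came from C2C12, a line of mouse myoblasts whose cells fuse to form myotubes once placed in differentiation medium (DM). Total RNA depleted of ribosomal RNA was sequenced from myoblasts (MB, DM -24 h) and myotubes (MT, DM 72 h), neither with a transfection in the labels. PolyA RNA was sequenced from MT at DM 48 h transfected with a control siRNA (si-NC) or with an siRNA against Hnrnpl (si-hnRNPL), which encodes the RNA-binding protein hnRNPL, so the si-NC library is the only control of the si-hnRNPL library. No genotype other than that of the line is given, and the tag for cell type reads C2C12 myoblasts in all 4, the MT libraries included. With 1 library per group, the differences between libraries lack a check by replicates, and p-values were not computed. Levels are FPKM, fragments per kilobase of transcript scaled to the number of mapped fragments, so that genes of different length can be compared within a library, and the brackets after a level hold its 95% Cufflinks interval, which covers counting and assignment error within that library only. The total and polyA pairs differed in RNA selection, kit, sequencer and time in DM and were normalized apart, so levels are set side by side across the pairs but not compared.

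The widths of the intervals corresponded to between 14592480 fragments (si-hnRNPL) and 59960176 fragments (MB) over all entries. Hnrnpl stood at 111 FPKM in MB, 63.0 in MT, 95.1 in si-NC and 85.9 with si-hnRNPL, which is 0.904-fold of si-NC, and 23.3% of the genes at 1 FPKM or more in both polyA libraries had a lower log2 change. Every direction given for si-hnRNPL therefore rests on its label. Of 6 myotube markers, the summed FPKM was 15.7 in MB, 1583 in MT, 2617 with si-NC and 3971 with si-hnRNPL, and of 5 markers of cycling myoblasts it was 515, 88.8, 215 and 154, so these markers were still present in the MT libraries. Markers of blood summed to at most 1.13 FPKM in any library, those of endothelium to at most 0.0327 and those of epithelium to at most 0.407. Of the satellite cell markers, Calcr was at 0 in every library, Pax3 was at most 0.0271 FPKM, Pax7 ranged from 1.02 to 7.42, and Spry1 was at 1.26 in MB, 18.2 in MT, 14.5 with si-NC and 12.2 with si-hnRNPL, and the 4 summed to between 6.13 and 25.7. The 5 fibroblast or adipogenic markers summed to between 15.6 and 21.6 FPKM, of which Tcf21 was at 0 throughout and Adipoq at most 0.0446, while Pparg ranged from 3.37 to 14.8, Cebpa from 4.65 to 12.1 and Pdgfra from 2.14 to 4.91. Among neural markers, Tubb3, a tubulin also made outside neurons, ranged from 11.4 to 56.4 FPKM, Rbfox3 was at most 0.0168 and Sox10 at most 0.0271.

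In the mm9 annotation, each of the 4 genes has 3 exons. Myod1 (ENSMUSG00000009471) lies on the + strand at chr7:53631844-53634462, and Myog (ENSMUSG00000026459) on the + strand at chr1:136186581-136189124. Myf5 (ENSMUSG00000000435, chr10:106919964-106923190) and Myf6 (ENSMUSG00000035923, chr10:106929916-106931785) are neighbours on the - strand, 6.7 kb apart. The coding parts are 954 nt for Myod1, 765 nt for Myf5, 726 nt for Myf6 and 672 nt for Myog.

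Because the proteins bind E-boxes and Myog is itself a gene that MyoD switches on, the 250 bases before the start of Myog and of Myf5 are shown with E-boxes in capitals. The RefSeq promoter table (GRCm38.p6) held an entry for these 2 of the 4 genes, and both sequences were found at a single place on the same chromosome of mm9, ending at the base before the annotated start.
Myog, mm9 chr1:136186331-136186580, + strand: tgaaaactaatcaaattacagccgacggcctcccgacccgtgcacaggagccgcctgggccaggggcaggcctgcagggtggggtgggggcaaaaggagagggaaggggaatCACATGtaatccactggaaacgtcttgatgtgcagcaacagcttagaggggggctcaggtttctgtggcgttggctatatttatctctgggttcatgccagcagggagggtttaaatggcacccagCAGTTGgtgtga
Myf5, mm9 chr10:106923191-106923440, - strand: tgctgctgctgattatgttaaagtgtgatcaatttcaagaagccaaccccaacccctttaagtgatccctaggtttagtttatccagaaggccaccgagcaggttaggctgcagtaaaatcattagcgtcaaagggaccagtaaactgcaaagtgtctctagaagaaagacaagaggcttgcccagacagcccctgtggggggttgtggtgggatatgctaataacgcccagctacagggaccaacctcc
The Myog window held 2 E-boxes, CACATG at 138 to 133 bases and CAGTTG at 12 to 7 bases before the start, and the Myf5 window held 0. The motif CANNTG reads the same on both strands as a pattern, and 66.2% of 32851 RefSeq promoter windows of the same length held it at least once and 31.8% held it 2 or more times. The form CAGCTG was in neither window and in 4271 of the 32851, and the form CAGGTG, or CACCTG on the other strand, was in neither window and in 17.2% of all. A match of letters is a description of the window and not of binding.
The siRNA against Hnrnpl that the study numbers 1 in its list of oligos is printed for its 19 bases, with no part capitalised. It is taken here to be the siRNA of the si-hnRNPL library.
si-hnRNPL: gcgugcuucuguuuaccau

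Myod1 was the leading factor in myoblasts and Myog in every myotube library. In MB, Myod1 stood at 36.6 FPKM (35.6 to 37.6), Myf5 at 13.8 (13.2 to 14.4), Myog at 0.695 (0.535 to 0.854) and Myf6 at 0.188 (0.0971 to 0.280). In MT, the order was Myog at 251 FPKM (248 to 254), Myod1 at 65.9 (64.6 to 67.3), Myf5 at 13.6 (13.1 to 14.2) and Myf6 at 0.370 (0.245 to 0.495). Myog thus moved from below Myod1 and Myf5 to above both, while Myod1 stayed above Myf5. In si-NC, the levels were 175 FPKM for Myog (171 to 179), 43.6 for Myod1 (41.8 to 45.3), 38.5 for Myf5 (37.0 to 40.0) and 0.285 for Myf6 (0.101 to 0.468). In si-hnRNPL, they were 249 FPKM for Myog (243 to 255), 49.0 for Myod1 (46.7 to 51.3), 29.0 for Myf5 (27.3 to 30.6) and 0.351 for Myf6 (0.103 to 0.599). No neighbours in the order of any library had overlapping intervals, and the closest pair was Myod1 and Myf5 in si-NC, with a ratio of 1.13. Myf6 was last in each library and rested on few fragments, about 17 in MB, 35 in MT, 9.6 with si-NC and 8.0 with si-hnRNPL, where Myog in MT rested on about 28762.

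**Figure D1:**
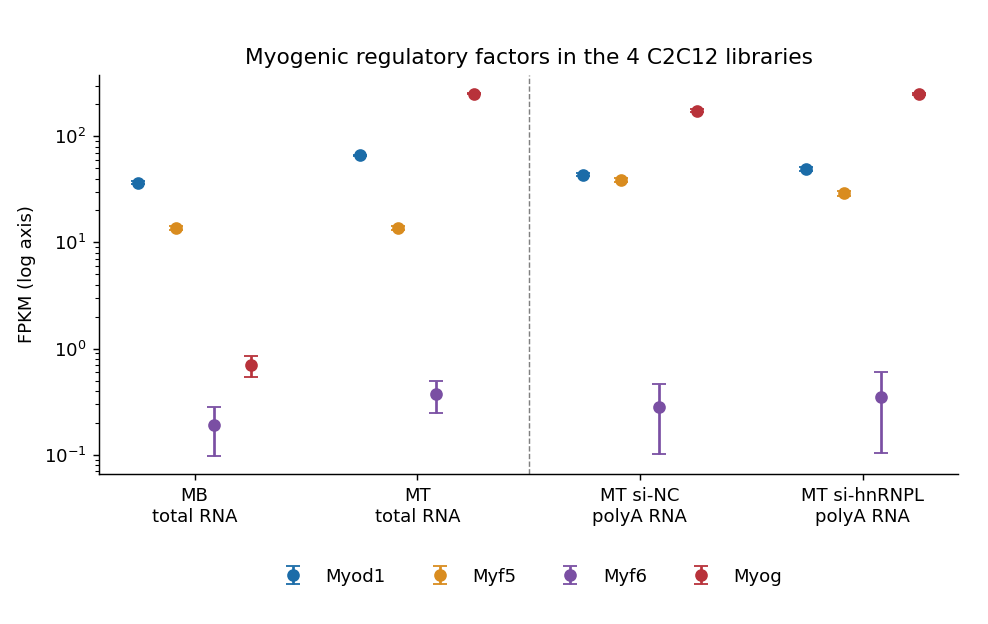
FPKM (log axis) of Myod1, Myf5, Myf6 and Myog in the 4 libraries, 1 point per gene and library, with the 95% Cufflinks interval as the error bar and a dashed line between the total and polyA RNA pairs. Myog stands at 0.695 in MB and 251 in MT, and Myf6 stays below 0.6 in every library.

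The place of each gene among all genes changed accordingly. Of 17246 gene entries above 0 in MB, Myod1 was number 2361 from the top and Myog number 11501. Of 17932 in MT, Myod1 was number 864 and Myog number 138. Myf5 was number 5593 in MB and 4956 in MT, and Myf6 was between number 12254 and number 12853 in the 4 libraries. In the polyA libraries, Myog was number 393 of 16051 under si-NC and number 298 of 15805 under si-hnRNPL.

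The summed FPKM of the 4 genes was 51.2 in MB, 330 in MT, 257 under si-NC and 328 under si-hnRNPL. Myod1 made up 71.4% of this sum in MB and 19.9% in MT, Myf5 26.9% and 4.12%, and Myog 1.36% and 75.8%. Myod1 thus held the largest share in MB and Myog in MT. Myog held 68.0% under si-NC and 76.1% under si-hnRNPL, Myod1 16.9% and 15.0%, and Myf5 15.0% and 8.84%. Myf6 made up 0.368% in MB and between 0.107% and 0.112% in the MT libraries. These shares do not depend on the scaling between libraries.

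**Figure D2:**
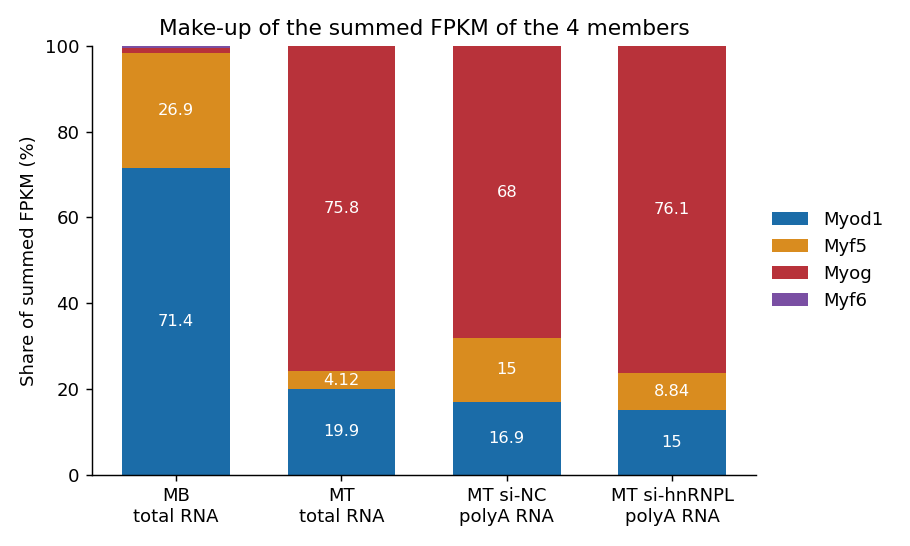
Share (%) of the summed FPKM of the 4 genes held by each gene, 1 bar per library, without error bars. Myod1 takes 71.4% of the MB bar, and Myog takes between 68.0% and 76.1% of the 3 MT bars.

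The first comparison asks how the factors differ between myoblasts and myotubes. Changes are given on the log2 scale, MT over MB, with 1 FPKM added to each level, so that changes of low genes are understated, and with an interval that adds both libraries' intervals in quadrature, and a change of 0.58 or more in size was counted as a call, after the study's threshold of a fold change above 1.5. Myog was higher in MT by 7.21 (7.08 to 7.36), and the plain ratio of its levels was 361-fold (293 to 468). This exceeded the change of every one of the 10791 gene entries at 1 FPKM or more in both libraries, a set that Myog itself does not enter with its 0.695 FPKM in MB. That set leaves out genes that rise from below 1 FPKM, and some of these changed more than Myog. Examples are Tnnt3, at 0.613 FPKM in MB (7.52), and Myl1, at 0.938 FPKM in MB (7.29). Myod1 was higher by 0.83 (0.78 to 0.88), a ratio of 1.80, and 7.32% of the 10791 entries had a larger change. Myf5 differed by -0.01 (-0.09 to 0.07), with overlapping intervals and a ratio of 0.990. Myf6 differed by 0.20 (0.03 to 0.38), and its intervals in MB and MT overlapped. Its plain ratio was 1.96 with bounds from 1.11 to 4.05, so its call depends on the pseudocount: without a pseudocount the log2 change was 0.97.

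Thus 2 of the 4 genes were called higher and 0 lower, where 10.4% of 18624 gene entries were called higher and 18.3% lower. By intervals that do not overlap, 2 of 4 were higher and 0 lower, against 26.8% and 37.0% of all entries. The median change of the entries at 1 FPKM or more in both libraries was -0.23. Relative to that median, Myog was higher by 7.44, Myod1 by 1.06, Myf6 by 0.43 and Myf5 by 0.21, so the sign for Myf5 turned. The same centring changed the numbers of entries called from 1942 higher and 3407 lower to 3060 higher and 2208 lower.

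**Figure D3:**
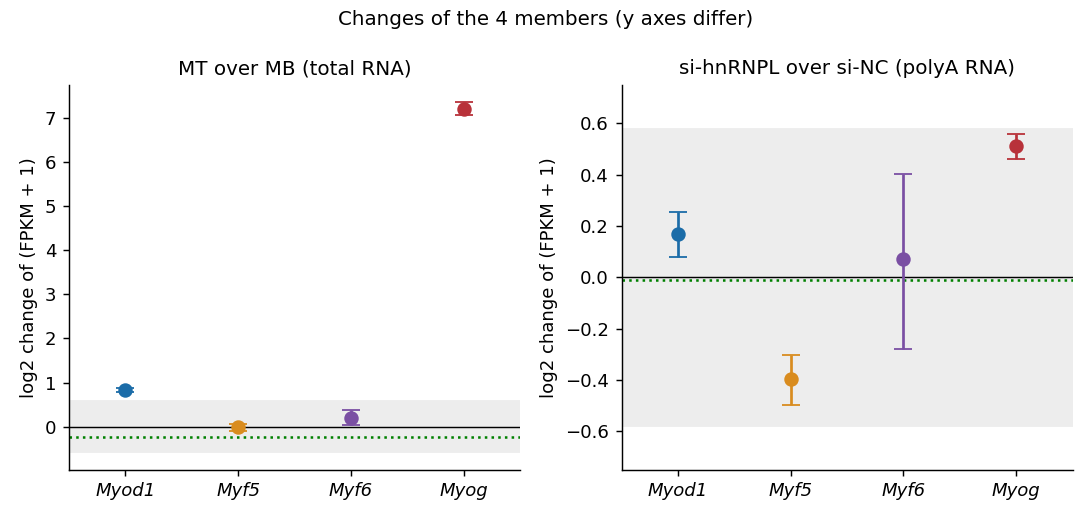
Log2 change of (FPKM + 1) of the 4 genes in MT over MB (left) and si-hnRNPL over si-NC (right), 1 point per gene with the interval made from both libraries, a grey band for changes under 0.58 in size and a green dotted line at the median of genes at 1 FPKM or more (-0.23 and -0.01). Myog at 7.21 and Myod1 at 0.83 lie outside the band on the left, and all 4 genes lie inside it on the right.

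Ratios between the factors are free of the scaling between libraries. Myog to Myod1 was 0.0190 in MB and 3.80 in MT, and Myog to Myf5 was 0.0505 and 18.4. Myf5 to Myod1 was 0.376 in MB and 0.207 in MT. The ratio of Myf6 to Myod1 was 0.00515 in MB and 0.00561 in MT, a difference well within the interval of Myf6.

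The second comparison asks whether the factors differ when hnRNPL is targeted in myotubes. Myog stood 1.43-fold higher in si-hnRNPL than in si-NC (1.38 to 1.48) and Myf5 at 0.753-fold (0.701 to 0.806), with intervals apart for both. On the log2((FPKM + 1) ratio) scale, Myog was higher by 0.51 (0.46 to 0.56), and 1.64% of 11090 gene entries at 1 FPKM or more in both libraries had a higher change. Myf5 differed by -0.40 (-0.50 to -0.30), and 2.86% of these entries had a lower change. Myod1 was higher by 0.17 (0.08 to 0.25), a ratio of 1.13 with intervals apart, and 18.3% of the entries had a higher change. Myf6 differed by 0.07 (-0.28 to 0.40), and its intervals overlapped.

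None of the 4 genes reached 0.58, where 1.03% of 16767 gene entries were called higher and 0.620% lower. By intervals that do not overlap, Myog and Myod1 were higher and Myf5 was lower, against 9.79% and 13.7% of all entries. Myog to Myf5 was 4.54 under si-NC and 8.61 under si-hnRNPL, Myog to Myod1 was 4.01 and 5.09, and Myf5 to Myod1 was 0.884 and 0.591. Marker levels moved in the same comparison. The cycling myoblast markers summed to 215 FPKM under si-NC and 154 under si-hnRNPL, with a lower value for 5 of 5. The myotube markers summed to 2617 and 3971, with a higher value for 6 of 6. One of these 6, the myoglobin gene Mb, hardly differed, at 9.39 and 9.72 FPKM with overlapping intervals. Fewer cells of a type and less RNA per cell cannot be told apart in bulk RNA, and the part of these markers in the members' changes was not tested. The median change of genes also differed with transcript length and GC content, and was -0.14 among genes with the GC content of Myf5. Myog, with a 1479 nt transcript of 54.8% GC, was higher by 0.40 relative to genes of like length and by 0.47 relative to genes of like GC content. Myf5, with 2083 nt and 41.6% GC, differed by -0.46 and -0.25 in the same way, and Myod1, with 1854 nt and 59.1% GC, by 0.097 and 0.063.

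The total RNA tables also list transcript units assembled from the reads, known by an identifier only. Within 50 kb of the 4 genes lay 25 such units, of which 21 were higher in MT by intervals that do not overlap and 0 were lower. That is 84.0%, against 42.3% of the 36780 units listed. Of the 25, 9 were listed at 0 in MB, as were 6.63% of all units. A unit at 0 in MB cannot be lower in MT, so 84.0% and 42.3% are not shares of like sets. Enhancers of the factors lie in such flanking DNA, but the tables give no strand and no class for a unit, and what each of these units is was not tested.

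Upstream of Myod1 lay 12 units between 0.2 and 38.8 kb from its start, and all 12 were higher in MT by the listed intervals. Of these, 3 were listed at 0 in MB with an interval of no width, though a count of 0 allows up to 3 fragments. The lowest of these 3 in MT, XLOC_056761 at 0.108 FPKM, rested on about 9 fragments there, so its difference is uncertain. Their summed level was 1.41 FPKM in MB and 11 in MT. The unit with the highest MT level, XLOC_056762 (chr7:53601143-53609472, 22.4 to 30.7 kb upstream), stood at 0.279 FPKM in MB and 4.03 in MT. It overlaps XLOC_054732, at 0.331 and 1.24 FPKM, so some units are not separate stretches of DNA. The unit next to the gene, XLOC_056764 (chr7:53630081-53631645, 0.2 to 1.8 kb upstream), stood at 0.386 FPKM in MB and 2.51 in MT. Munc, a gene entry for a noncoding RNA made upstream of Myod1, lies 4.0 to 5.1 kb from the start (chr7:53626773-53627862) and stood at 0.0337 FPKM in MB, from about 1 fragment, and 1.21 in MT, from about 38. No unit was listed downstream of Myod1 within the window, and the next gene on that side, Kcnc1, a potassium channel gene, stood at 0.0123 FPKM in MB and 0.0719 in MT.

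Upstream of Myog lay 5 units between 2.6 and 19.9 kb from its start. All 5 were higher in MT, at 0.182 to 0.470 FPKM, and 4 of them were listed at 0 in MB, where a count of 0 allows up to 3 fragments. Downstream, XLOC_003569 (chr1:136206459-136207646) was listed at 0 in MB and stood at 1.89 FPKM in MT. It lies inside Ppfia4, a gene for a liprin scaffold protein, which stood at 0.0204 FPKM in MB and 4.07 in MT. The other 2 downstream units, at the far edge of the window, had overlapping intervals.

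Myf5 and Myf6 share a window with 5 units, of which 3 were higher in MT. These 5 stood at no more than 0.180 FPKM in MB and 0.222 in MT. The unit between the genes, XLOC_005563 (chr10:106926207-106927504), stood at 0.180 and 0.222 FPKM with overlapping intervals. Beyond them, Ptprq, a receptor phosphatase gene, stood at 0.156 FPKM in MB and 0.157 in MT.

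**Figure D4:**
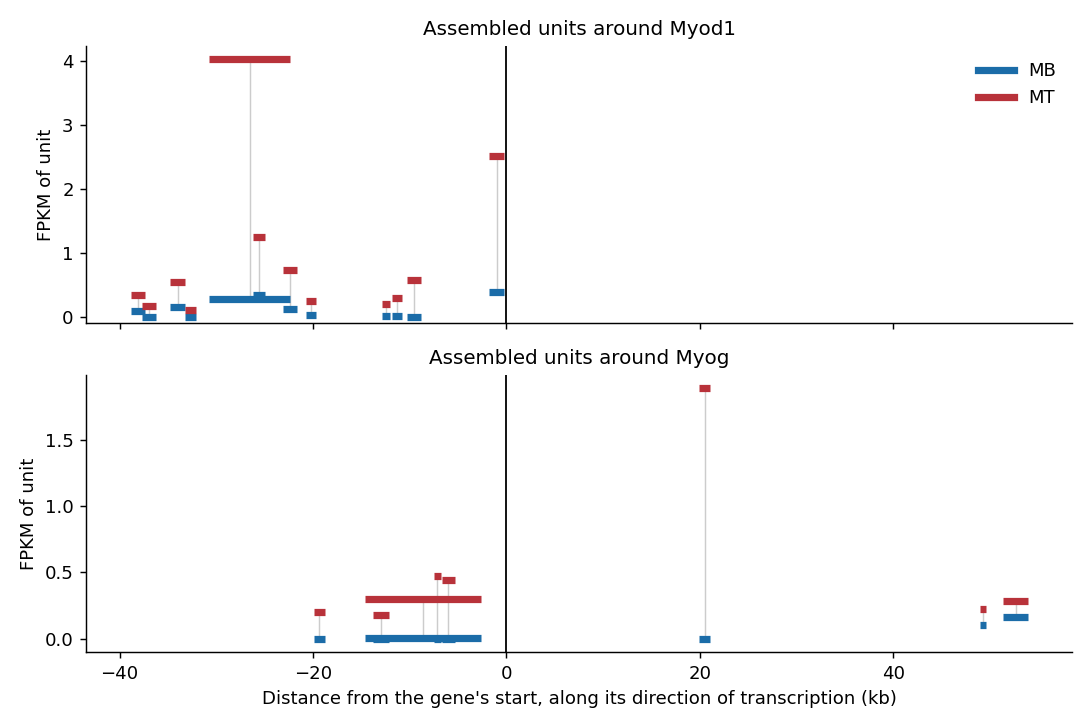
FPKM of the assembled units around Myod1 (12 units, top) and Myog (8 units, bottom) in MB (blue) and MT (red), drawn as bars that span each unit against its distance (kb) from the gene's start, upstream at the left, without error bars. All 12 units upstream of Myod1 and all 5 upstream of Myog stand higher in MT, and 3 and 4 of these are listed at 0 in MB.

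The genes that work with the factors were taken as 6 lists of known partners, regulators and targets, written with earlier results of these data known. Beside the counts below, 10.4% of all gene entries were called higher and 18.3% lower in MT. In si-hnRNPL these shares were 1.03% and 0.620%. The factors' dimer partners, the E proteins, moved in different directions between MB and MT. Of these 3, 1 was called higher and 1 lower in MT, or 2 and 1 after centring. Tcf3, the gene of E12 and E47, was at 32.6 FPKM in MB and 15.9 in MT (log2 change -0.99). Tcf4 (E2-2) was at 10.0 FPKM in MB and 26.7 in MT (1.33), and Tcf12 (HEB) at 37.0 and 48.2 (0.37). Tcf12 thus stood above the other two in both libraries. In the polyA pair, 0 of 3 were called, with log2 changes of 0.06 for Tcf3, -0.04 for Tcf4 and -0.13 for Tcf12.

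Of 16 inhibitors of the factors' activity, 6 were called higher and 6 lower in MT, or 6 and 5 after centring. The median log2 change was -0.13 beside -0.005 over all gene entries, and centring turned that median to 0.10. Heyl, a Notch target and repressor, was at 0.224 FPKM in MB and 10.1 in MT (3.18). Twist2, a helix-loop-helix factor that competes for E proteins, was at 17.2 and 4.02 FPKM (-1.86), and Bhlhe41, a transcriptional repressor, at 5.21 and 16.5 (1.5). The Id proteins lack a DNA-binding region and hold E proteins in inactive pairs, and were named after their values were seen. Id1 was at 78.9 FPKM in MB and 27.7 in MT, Id2 at 56.9 and 25.7, and Id3 at 211 and 104, each called lower. Id4, at 0.233 and 0.0460 FPKM (-0.24), was not called. In si-hnRNPL, Id3 was the only 1 of the 16 called, with 34.1 FPKM in si-NC against 64.5 in si-hnRNPL (0.90, higher). The next changes in size were those of Hey1, another Notch target (-0.47), and Msc, a helix-loop-helix repressor (-0.32), whose intervals overlapped.

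Of 16 cofactors that act on the same genes, 4 were called higher and 5 lower in MT, or 6 and 4 after centring. The median was 0.01, or 0.23 after centring. Mef2c, a partner factor in muscle gene activation, was at 0.0732 FPKM in MB and 4.0 in MT (2.22). Mef2a, of the same family, was at 12.8 and 41.7 FPKM (1.63), and Prmt5, an arginine methyltransferase, at 50.5 and 19.5 (-1.33). In the polyA pair 0 of 16 were called, with the largest differences for the acetyltransferase gene Ep300 (-0.24), Mef2a (-0.18) and Six4 (-0.13).

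Of 12 upstream regulators of the factors, Tcf21 and Dach1 were at 0 in all 4 libraries. Of the other 10, 3 were called higher in MT and 1 lower, or 5 and 0 after centring, with a median of 0.34 or 0.57. Sox8 was at 3.38 FPKM in MB and 11.2 in MT (1.48), and Tbx1 at 4.19 and 1.99 (-0.80). In the polyA pair 0 of 10 were called. Sox8 differed by -0.35, Tbx1 by 0.21 and Six4, which is in the cofactor list as well, by -0.13.

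Of 12 repressors that are recruited to genes bound by the factors, 1 was called higher and 6 lower in MT, or 2 and 4 after centring, with a median of -0.43, or -0.20 after centring, beside -0.005 over all gene entries. Suv39h1, a histone H3 lysine methyltransferase, was at 35.3 FPKM in MB and 8.34 in MT (-1.96), Ezh2, the methyltransferase of Polycomb complex PRC2, at 24.1 and 8.07 (-1.47), and Hdac7, a histone deacetylase, at 15.5 and 6.32 (-1.18). In the polyA pair 0 of 12 were called. Ezh2 was closest, with 22.5 FPKM in si-NC against 14.8 in si-hnRNPL (-0.57), followed by Hdac9 (-0.39) and Sin3a (-0.21).

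All 32 textbook targets of the factors were called higher in MT, with or without centring, where 10.4% of all gene entries were. Their log2 changes ran from 0.62 to 7.52 with a median of 4.60. The list holds known targets and was written with earlier results of these data known, so this count is a description and not a test. Fast troponin T, Tnnt3, was at 0.613 FPKM in MB and 295 in MT (7.52), the myosin light chain gene Myl1 at 0.938 and 302 (7.29), and Mylpf, another light chain, at 2.72 and 528 (7.15). In si-hnRNPL, 7 of 32 were called higher and 0 lower, against 1.03% and 0.620% of all gene entries. The median was 0.37 beside -0.001 over all gene entries. The targets with the largest changes were Hes6, a helix-loop-helix factor that promotes differentiation, with 27.6 FPKM in si-NC against 49.4 in si-hnRNPL (0.82), muscle creatine kinase, Ckm, at 45.0 and 74.3 (0.71), and Mylpf at 998 and 1612 (0.69). By intervals that do not overlap, 24 were higher and 1 was lower, against 9.79% and 13.7% of all gene entries. The lower target was the retinoblastoma gene Rb1 at 28.3 and 24.8 FPKM (-0.19). Of the 29 targets that were at 1 FPKM or more in both polyA libraries and had a transcript of the same symbol in the mm9 annotation, 2 were past 0.58 once the median of genes of like transcript length was subtracted and 5 once that of like GC content was, with medians of 0.30 and 0.32. Mef2c is in this list and the cofactor list, and all 6 myotube markers are in this list, so the target and marker values are not separate evidence.

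**Figure D5:**
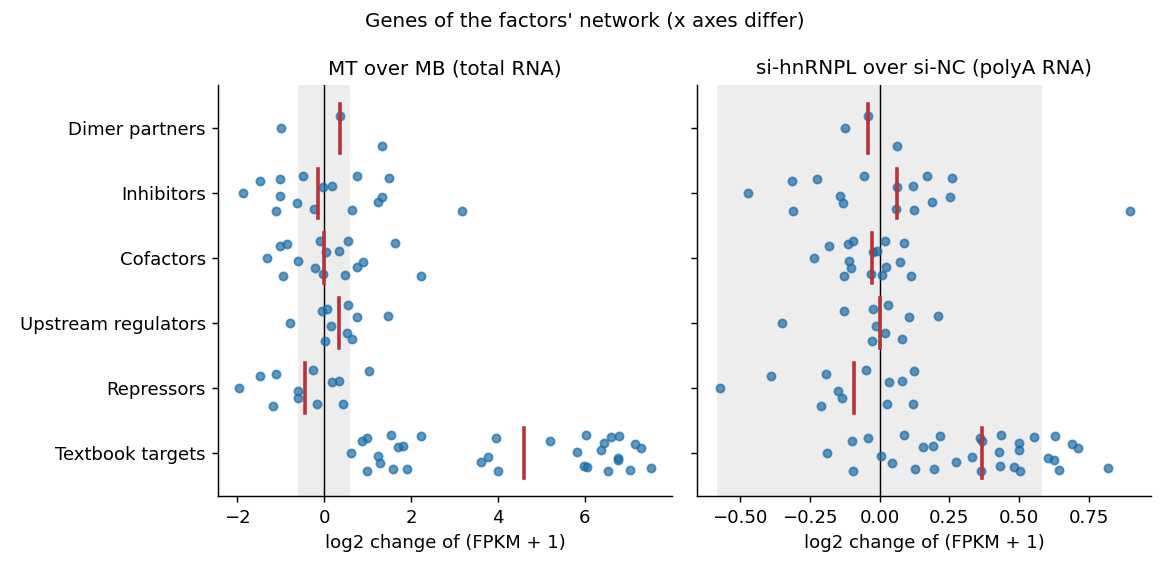
Log2 change of (FPKM + 1) for each gene of the 6 lists (rows) in MT over MB (left) and si-hnRNPL over si-NC (right), 1 point per gene, a red line at each list's median and a grey band for changes under 0.58 in size. The 32 textbook targets all lie right of the band on the left, and 7 of them do so on the right.

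The genes with the most similar levels were found by Euclidean distance over log2(FPKM + 1) in the 4 libraries, among 11619 other genes, and with 4 values per gene this is a description. Nearest to Myog were Tnni1, slow troponin I (distance 0.43), at 1.16 FPKM in MB, 285 in MT, 190 with si-NC and 269 with si-hnRNPL, then Mybph, a myosin-binding protein gene (0.83), and Tnnc2, fast troponin C (0.98). Nearest to Myod1 were 2010111I01Rik (0.16), Vcam1, a cell adhesion molecule (0.19), at 34.0, 71.9, 45.5 and 46.2 FPKM, and Akt2, a kinase of insulin signalling (0.33). Near Myf5 were Pnn (0.32), at 14.8, 12.8, 31.6 and 27.2 FPKM, and Ube2l6 (0.34). Myf6 had no close neighbour among genes that reach 1 FPKM, the nearest being Sult2b1 (0.57), 2700046G09Rik (0.59) and Jpx (0.59).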

How the data were processed

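The files cover MB and MT total RNA and polyA RNA of MT transfected with si-NC or si-hnRNPL, with 1 library each. The authors trimmed the reads, dropped those under 36 bp, aligned them to mm9 by TopHat and estimated abundance with Cufflinks, and they deposited FPKM values, each with an interval, a locus and a status. The annotation release they used is not given in the sources used here. Depth was read from the interval widths, N = (2 x FPKM / (upper bound - FPKM)) squared. This treats the width as counting error only, so fragments are understated where assignment error widens an interval, and the totals are not sequencing depths. Log2 changes used a pseudocount of 1 FPKM and a call at 0.58. No test was run, since each group holds 1 library. Members and lists were chosen with earlier results of these data known. Named genes are the members, Hnrnpl, the 3 nearest genes of each member, the dimer partners and up to 3 genes with the largest change of each list in each comparison. Some genes selected this way are not reported here. Alternatives were other pseudocounts, thresholds and scalings, a filter on low FPKM, and the subtraction of medians of 20 bins of transcript length or GC content, the last added after seeing the data. Loci of the members and exon numbers came from the GENCODE annotation of mm9. Scripts were run in Python 3.11.15 (pandas 2.3.3, numpy 2.4.6, matplotlib 3.10.9) and tested on simulated data.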

Additional observations from a re-analysis of the deposited data

How the results depend on the processing

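No paired analysis was possible because each group holds 1 library, and for the same reason no replicate could be left out. In MT over MB, Myod1 moved from 0.83 to 1.06 when centred on the median change, 1.11 when scaled to the upper quartile, 1.21 relative to genes of like transcript length and 1.12 relative to genes of like GC content. In the same order Myog moved from 7.21 to 7.44, 7.41, 7.56 and 7.52, and to 8.30 with a pseudocount of 0.1 FPKM and 8.49 with none. Myf5 moved from -0.01 to 0.21, 0.25 and 0.24 under the first 3 of these. Myf6 moved from 0.20 to 0.43 when centred, 0.64 by length and 0.49 by GC content, and to 0.70 and 0.97 with a pseudocount of 0.1 and none. Thus Myod1 and Myog kept their sign and their side of 0.58 under 6 of 6 alternatives, Myf5 kept its sign under 3 of 6, and Myf6 kept its side of 0.58 under 3 of 6. In si-hnRNPL over si-NC, no member passed 0.58 under any of the 6 alternatives. Myog moved from 0.51 to 0.40 by length, and by GC content Myf5 moved from -0.40 to -0.25 and Myod1 from 0.17 to 0.063. Myf6 ranged from -0.06 to 0.30. The counts of entries called in MT over MB were 1942 higher and 3407 lower, with 931 and 1571 at a threshold of 1, 3060 and 2208 when centred, and 3414 and 4265 with a pseudocount of 0.1. Those in si-hnRNPL over si-NC were 172 higher and 104 lower, with 38 and 17 at a threshold of 1 and 829 and 639 with a pseudocount of 0.1. A smaller pseudocount counts more genes of low FPKM, and the causes of the other moves were not tested. Myf6 rested on 8.0 to 35 fragments per library, and its intervals overlapped in both comparisons.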
